A study of Homo sapiens with 4 samples.

Results

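A set of 10 genes that report on the ERK pathway was followed across 2 lines of human multiple myeloma, a cancer of antibody-secreting plasma cells. They are the MAP kinase phosphatases DUSP2, DUSP4, DUSP5 and DUSP6, the Sprouty proteins SPRY1, SPRY2 and SPRY4, the Sprouty relative SPRED1, and the ETS transcription factors ETV4 and ETV5. The genes were chosen by symbol, through the platform's annotation of each probe set. It named 9 probe sets for 8 of the 10 genes, out of 53617 probe sets on the array, while SPRY1 and SPRED1 were not analysed here because the annotation used paired no probe set with their names. Of the 8, SPRY2 lay under the filter on dim genes, so 7 genes were tested among 7442.

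Total RNA of the lines ARP-1 and MM.1S was measured on 4 whole-transcript arrays, 1 array for each line and condition. Cells of both conditions were, per the labels, infected with hairpin lentivirus and sorted for GFP: CTR-KO cells carry a control hairpin RNA, and MIF-KO cells a hairpin against MIF, a secreted inflammatory cytokine. A hairpin lowers a transcript and leaves the gene in place, so KO here names a knockdown. The titles and genotype labels give the groups used here, but the free-text descriptions of the ARP-1 arrays name the reverse condition for each, and an exchange of this pair was therefore computed beside the main result.

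ERK is the last kinase of a relay that runs from growth factor and cytokine receptors through RAS, RAF and MEK. Active ERK enters the nucleus and, through ETS and AP-1 factors, switches on target genes, among them inhibitors of the pathway itself: DUSP phosphatases strip the activating phosphates from MAP kinases, and Sprouty and SPRED proteins restrain signalling at the level of RAS and RAF. Transcript levels of these genes are widely used as a readout of pathway activity, which is frequently raised in myeloma through mutations of RAS genes or signals from the bone marrow. No phosphorylation of ERK was measured on these arrays.

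Several facts about the arrays touch every result that follows. MIF itself was lower on each MIF-KO array, with intensities of 1092 and 541 in ARP-1 and of 1012 and 405 in MM.1S (CTR-KO, then MIF-KO), as the titles have it. The CTR-KO ARP-1 array stood furthest from the rest, with 295 tested genes at least 2-fold from the mean of the other 3 arrays, against 107 for its MIF-KO partner, and 77 (CTR-KO) and 16 (MIF-KO) among the MM.1S pair. All 6 plasma cell markers with a named probe set passed the filter, and 0 of 7 named markers of B, T, myeloid and stromal cells did. Of these 6 plasma cell markers, 2 were lower with the MIF hairpin in ARP-1 and higher in MM.1S, as most members below were: the surface proteins SDC1 (-1.36 and 0.48, log2) and CD38 (-1.44 and 0.46). The signs were the reverse for 3 of the 6, the transcription factors IRF4 (0.29 and -0.01) and XBP1 (0.51 and -0.05) and the chaperone MZB1 (0.45 and -0.63), while the surface receptor SLAMF7 was nearly level in ARP-1 (0.02) and higher in MM.1S (0.37). The part of these markers in the results was not tested. A difference within a line sets 1 array against 1 array and has no replicate check, and nothing says that the 4 samples came from separate cultures.

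The tested genes were lower with the MIF hairpin in ARP-1 and higher in MM.1S, with ETV5 as the exception. In MM.1S all 7 were higher on the MIF-KO array, against 55.1% of all tested genes, and in ARP-1 6 of 7 were lower, against 52.3%. Both held for 6 of 7 members and for 37.5% of all tested genes. These shares describe a set that was chosen with earlier results of these data known. Opposite signs were the common case on these arrays: counting both orders, they occurred in 67.6% of all tested genes. Across the 7442 genes, which are not independent replicates, the differences of the lines correlated with r = -0.555. In bulk RNA, fewer cells with a transcript and less of it per cell cannot be told apart. The median difference of the 7 genes (MIF-KO minus CTR-KO, log2) was -0.46 (ARP-1) and 0.44 (MM.1S), beside -0.03 and 0.04 over all tested genes. For 5 of the 7 genes, CTR-KO ARP-1 and MIF-KO MM.1S were the brightest arrays, an order found in 29.9% of tested genes. With every gene centred on its own mean, the members' median was 0.18 and 0.22 on these bright arrays, and -0.17 (ARP-1) and -0.22 (MM.1S) on their partners.

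**Figure D1:**
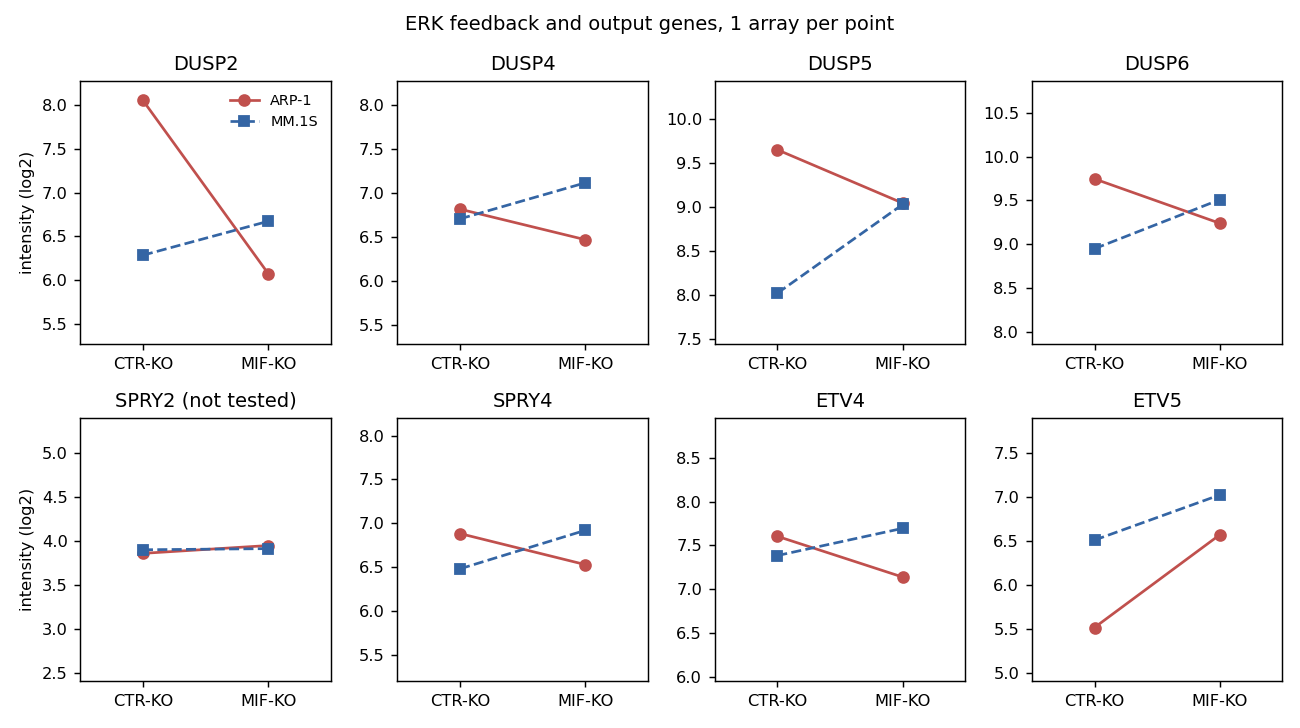
Log2 intensity (vertical axis, 3 log2 units high in every panel) of the 8 measured genes under the control hairpin and the MIF hairpin; each point is 1 array, circles with solid lines for ARP-1 and squares with dashed lines for MM.1S, with no error bars because each point is a single array. The lines slope in opposite directions in every tested gene but ETV5, which was higher with the MIF hairpin in both, and SPRY2 stayed between 3.86 and 3.95.

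Over both lines the model called no member. In limma, with cell line and condition as terms and Benjamini-Hochberg adjustment over the 7442 genes, 0 of 7 members and 0% of all genes passed an adjusted p of 0.05 in either direction. The lowest adjusted p of any gene was 0.99995. MIF, the target of the hairpin, was lower in both lines and did not pass either (mean -1.17, SE 0.29, n = 2 lines, limma adjusted p = 0.99995). A count of 0 called, here and for the lists below, is therefore no evidence that a gene did not differ. At an unadjusted p below 0.05 there were 29 genes, of which ETV5 was the single member. The error of this test draws on how far the lines disagree for a gene and, for the larger part, on the spread over all tested genes. The gene's own part has 1 degree of freedom, and the part borrowed from all genes has 3.99. An SE given with n = 2 lines is therefore not that gene's spread between lines alone. Opposite differences of similar size give a mean near 0 and widen the interval.

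DUSP2, DUSP6 and SPRY4 are the tested members for which a RefSeq window was at hand, and the 250 bases ahead of the annotated start of each are shown, 5′ to 3′ on the gene's strand, from RefSeq (GRCh38.p14). All 3 genes are on the minus strand, with windows at chr2:96145441-96145690 for DUSP2, chr12:89352502-89352751 for DUSP6 and chr5:142324248-142324497 for SPRY4. Capitals mark GGAA, the short core that ETS factors bind, on either strand (TTCC is the same core on the other strand).
DUSP2: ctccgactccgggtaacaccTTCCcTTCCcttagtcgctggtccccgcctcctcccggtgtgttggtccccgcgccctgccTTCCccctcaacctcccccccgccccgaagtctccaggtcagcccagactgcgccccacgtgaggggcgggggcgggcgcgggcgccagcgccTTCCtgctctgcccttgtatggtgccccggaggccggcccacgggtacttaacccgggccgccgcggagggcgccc
DUSP6: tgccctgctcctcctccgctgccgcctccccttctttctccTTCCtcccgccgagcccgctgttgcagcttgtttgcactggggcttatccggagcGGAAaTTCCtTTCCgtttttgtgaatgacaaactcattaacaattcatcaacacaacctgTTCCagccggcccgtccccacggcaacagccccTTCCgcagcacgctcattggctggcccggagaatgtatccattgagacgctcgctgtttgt
SPRY4: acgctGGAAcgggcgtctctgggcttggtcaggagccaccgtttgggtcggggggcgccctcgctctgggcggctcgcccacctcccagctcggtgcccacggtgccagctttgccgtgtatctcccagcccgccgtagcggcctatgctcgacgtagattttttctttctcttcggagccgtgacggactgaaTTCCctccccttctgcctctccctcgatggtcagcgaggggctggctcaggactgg
The short core occurs 4 times ahead of DUSP2, 6 times ahead of DUSP6 and 2 times ahead of SPRY4. It is common: 92.7% of the 35116 windows of this length hold it, with a median of 3. The longer core CCGGAA, which contains the short one, is in 0 of these 3 windows and in 14.5% of all. The AP-1 site TGANTCA, in 6.57% of all windows, the cyclic AMP element TGACGTCA, in 1.65%, and the CArG box of serum response factor, in 1.16%, are also in 0 of the 3. Windows were found for 6 of the 10 genes, and among the 9 windows of these, CCGGAA is in 1 of SPRY1 and 1 of SPRY2. A match of letters is a description of the sequence, and its absence says only that these letters are not in this window.

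Among the phosphatases, DUSP2, a nuclear enzyme first described in activated lymphocytes, differed most. Its intensity was 265 (control hairpin) and 67.5 (MIF hairpin) in ARP-1 and 78.0 and 102 in MM.1S. The CTR-KO ARP-1 array was far above the other 3, so the conditions overlap: the CTR-KO arrays are the highest and the third of the 4. DUSP2 was 3.93-fold lower with the MIF hairpin in ARP-1 (log2 -1.97), the 13th most negative difference of 7442 genes, and 1.31-fold higher in MM.1S (0.39). The mean difference was -0.79 (SE 0.60, n = 2 lines; 95% interval from -2.33 to 0.74). Without the ARP-1 pair the sign turns, to the 0.39 of MM.1S.

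DUSP5, a nuclear phosphatase specific to ERK, was the member with the widest difference in MM.1S. On its brighter probe set the intensity was 806 (control hairpin) and 529 (MIF hairpin) in ARP-1 and 259 and 523 in MM.1S. CTR-KO MM.1S was the low array, and the MIF-KO arrays of the lines were nearly level. The gene was 2.02-fold higher with the MIF hairpin in MM.1S (log2 1.01), the 42nd most positive difference of that line, and 1.52-fold lower in ARP-1 (-0.61). A dimmer probe set of DUSP5 read 120, 60.8, 32.6 and 65.5 in the same order of arrays, with differences of -0.98 in ARP-1 and 1.01 in MM.1S, so both probe sets gave the same signs. The mean over the lines was 0.20 (SE 0.47, n = 2 lines; interval from -0.998 to 1.402).

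DUSP6, the cytoplasmic ERK phosphatase most often used as a pathway readout, had intensities of 858 (control hairpin) and 604 (MIF hairpin) in ARP-1 and 494 and 728 in MM.1S. The conditions overlap fully, with the CTR-KO arrays as the highest and the lowest. DUSP6 was 1.42-fold lower with the MIF hairpin in ARP-1 (log2 -0.51) and 1.47-fold higher in MM.1S (0.56), short of 1.5-fold in each. Its mean difference was 0.03 (SE 0.37, n = 2 lines; interval from -0.93 to 0.98).

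DUSP4, a nuclear phosphatase of ERK and other MAP kinases, read 113 (control hairpin) and 88.5 (MIF hairpin) in ARP-1 and 104 and 139 in MM.1S. Under the control hairpin the lines were close, and with the MIF hairpin they lay on either side. DUSP4 was 1.27-fold lower in ARP-1 (log2 -0.35) and 1.33-fold higher in MM.1S (0.41), with a mean of 0.03 (SE 0.32, n = 2 lines).

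SPRY4, a membrane-associated inhibitor of receptor signalling to RAS and RAF, had the signs of DUSP6 in both lines, though its brightest array was MIF-KO MM.1S where that of DUSP6 was CTR-KO ARP-1. Its intensity was 118 (control hairpin) and 92.3 (MIF hairpin) in ARP-1 and 89.3 and 121 in MM.1S, so 1 array of each condition was high and 1 low. The difference was -0.35 in ARP-1 and 0.44 in MM.1S, with a mean of 0.04 (SE 0.33, n = 2 lines). SPRY2, the close relative of SPRY4, read 14.5, 15.4, 14.9 and 15.1 in the same order of arrays, near the median of all probe sets (13.1 to 13.3 per array). With no filter on dim genes its mean difference was 0.05 (SE 0.16, n = 2 lines; limma adjusted p = 0.99996 over 14884 genes), and at this brightness a level above background is not shown.

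The ETS factors ETV4 and ETV5, which belong to the same small subfamily and are both induced downstream of ERK, parted company in ARP-1. ETV4 read 195 (control hairpin) and 141 (MIF hairpin) in ARP-1 and 167 and 207 in MM.1S. Its difference was -0.46 in ARP-1 and 0.31 in MM.1S, with a mean of -0.08 (SE 0.34, n = 2 lines). ETV5 read 45.8 (control hairpin) and 95.2 (MIF hairpin) in ARP-1 and 91.3 and 130 in MM.1S. It is the 1 member of 7 whose conditions do not overlap, with both MIF-KO arrays above both CTR-KO arrays, as in 11.2% of tested genes, though 95.2 and 91.3 are almost level, and 0 of 7 had both MIF-KO arrays below (9.47% of tested genes).

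ETV5 was 2.08-fold higher with the MIF hairpin in ARP-1 (log2 1.06) and 1.43-fold higher in MM.1S (0.52). The mean was 0.79 (SE 0.29, n = 2 lines; 95% interval from 0.05 to 1.52), higher in 2 of 2 lines, and it did not pass the adjustment over all genes (0 of 7442 did). As with DUSP2, the CTR-KO ARP-1 array is the one that stands apart, here below the others, and without the ARP-1 pair the difference is the 0.52 of MM.1S.

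At a threshold of 1.5-fold within a line, DUSP2 and DUSP5 were lower in ARP-1 (2 of 7, against 11.9% of all tested genes) and ETV5 was higher (1 of 7, against 10.9%). In MM.1S DUSP5 alone was 1.5-fold higher (1 of 7, against 5.12%) and 0 of 7 were 1.5-fold lower (against 2.89%). DUSP5 was the 1 member of 7 past 1.5-fold in both, lower in ARP-1 and higher in MM.1S (3.24% of all tested genes). DUSP4, DUSP6, SPRY4 and ETV4 were short of 1.5-fold in both lines. Their differences were of similar size, from -0.35 to -0.51 in ARP-1 and from 0.31 to 0.56 in MM.1S. Under quantile normalization DUSP5 in ARP-1, at -0.53, no longer reached 1.5-fold.

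**Figure D2:**
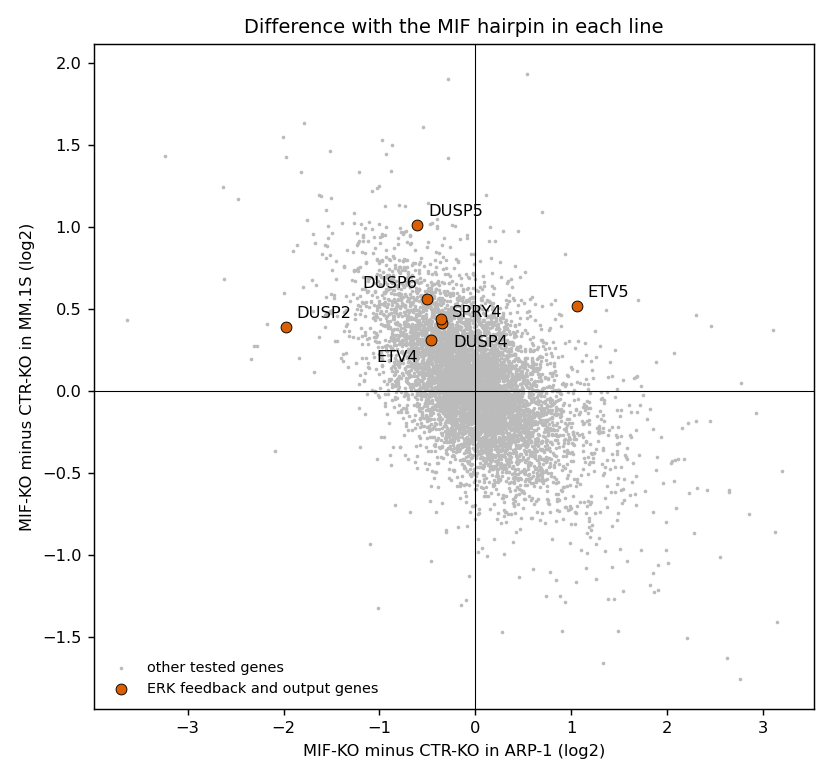
MIF-KO minus CTR-KO (log2) in ARP-1 (horizontal axis) against MM.1S (vertical axis); each grey dot is 1 of the tested genes and the orange points are the 7 tested ERK feedback and output genes, each value being 1 array minus 1 array. DUSP2, DUSP4, DUSP5, DUSP6, SPRY4 and ETV4 lie in the upper left, where 37.5% of all tested genes lie, and ETV5 in the upper right.

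The levels of the lines were compared in the same fit. Under the control hairpin MM.1S stood below ARP-1 for DUSP2 (-1.76, MM.1S minus ARP-1, log2), DUSP5 (-1.64), DUSP6 (-0.80), SPRY4 (-0.40), ETV4 (-0.22) and DUSP4 (-0.11), and above it for ETV5 (0.996). With the MIF hairpin the order was the reverse for all of these but DUSP5 and ETV5: DUSP4 differed by 0.65, DUSP2 by 0.60, ETV4 by 0.56, SPRY4 by 0.39 and DUSP6 by 0.27. DUSP5 was level there, at -0.02, which leaves both MM.1S arrays below both ARP-1 arrays for this 1 gene of 7 (11.6% of tested genes), while 0 of 7 had both above (15.8%), and ETV5 was 0.45 higher in MM.1S. Over both conditions the mean line difference was -0.83 for DUSP5 (SE 0.47, n = 2 conditions), 0.73 for ETV5 (SE 0.29) and -0.58 for DUSP2 (SE 0.60), and between -0.26 and 0.27 for the other 4. Limma called 0 of 7 members and 0% of all genes between the lines, and the lowest adjusted p was 0.99986. At an unadjusted p below 0.05 there were 87 genes and 0 members. The line differences under the control hairpin and the MIF hairpin were negatively correlated across probe sets (r = -0.37), and the cause was not tested.

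The direction in ARP-1 rests on the titles. With the ARP-1 arrays exchanged, as their descriptions name them, 6 of the 7 genes would be higher in MIF-KO in both lines, and ETV5 would turn from the same sign to opposite signs. The mean difference would then be 1.18 for DUSP2, 0.81 for DUSP5, 0.53 for DUSP6, 0.40 for SPRY4, 0.39 for ETV4, 0.38 for DUSP4 and -0.27 for ETV5. In that fit DUSP5 passed (SE 0.18, n = 2 lines, limma adjusted p = 0.0325), against an adjusted p of 1 (rounded) under each of its other 8 alternatives. DUSP2 (limma adjusted p = 0.0525) and DUSP6 (limma adjusted p = 0.0854) did not pass. The exchange turns the sign of every ARP-1 difference. Opposite signs under the titles, found in 67.6% of all tested genes, thus become equal signs by construction. The call of 1 of 7 stands beside 3.39% of all genes called higher under the exchange. In MM.1S titles and descriptions name the same conditions. MIF would be 2.02-fold higher in MIF-KO ARP-1 under the exchange, and is lower by that factor under the titles.

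Other genes of the pathway, from lists by role, were of mixed sign. Of the RAS, RAF, MEK and ERK cascade and its adaptors, 11 of 19 listed genes were tested and 0 passed in either direction. Their median was 0.15 (ARP-1) and -0.01 (MM.1S). The RAS activator SOS2 differed by 1.15 (ARP-1) and -0.31 (MM.1S), its relative SOS1 by 0.43 and -0.15, the docking protein GAB1 by 0.78 and -0.52, and the GTPase HRAS by -0.29 and 0.15. MAP2K1 (the kinase MEK1) differed by -0.19 and -0.03, and MAPK3 (the kinase ERK1) by -0.06 and -0.05. The signs of HRAS, GRB2 and ARAF ran as in most members, lower in ARP-1 and higher in MM.1S. These are 3 of 11 (27.3%), beside 37.5% of all tested genes, and ARAF was nearly level in MM.1S (0.006).

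Other genes listed as negative regulators, which include phosphatases of other MAP kinases, were mixed. Of these, 9 of 19 were tested and 0 called, with medians of 0.02 in ARP-1 and 0.09 in MM.1S. Lower in ARP-1 and higher in MM.1S were 4 of 9 (44.4%), beside 37.5% of all tested genes. DUSP7, a cytoplasmic ERK phosphatase related to DUSP6, differed by -0.97 (ARP-1) and 0.27 (MM.1S). DUSP10, a phosphatase of the stress kinases JNK and p38, differed by 1.07 and 0.31, LRIG1, a receptor inhibitor, by 1.004 and 0.13, and RASA2, which switches RAS off, by -0.25 and 0.58. In MM.1S 6 of 9 were higher, 66.7% beside 55.1% of all tested genes, a share near that background.

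Kinases and transcription factors that act downstream of ERK had 6 of 13 genes tested and 0 called. Like the members, all 6 had a higher MIF-KO value in MM.1S (55.1% of all tested genes), though by a median of 0.11. In ARP-1 4 of 6 were lower in MIF-KO (median -0.31), beside 52.3% of all tested genes. ETS1, a founding ETS factor, differed by -0.78 and 0.59, the kinase MKNK1 by -0.51 and 0.31, and serum response factor SRF by -0.45 and 0.02. ETV1, the closest relative of ETV4 and ETV5, differed by 0.29 and 0.18, the signs of ETV5.

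Of other transcripts that ERK induces, 11 of 16 were tested and 0 called, with medians of -0.08 in ARP-1 and 0.20 in MM.1S. FOSL1, an AP-1 subunit, differed by -1.23 (ARP-1) and 0.52 (MM.1S), and FOS by -0.21 and 1.003. IER3, an early response gene, differed by -0.80 and -0.13, and the pseudokinase TRIB1 by 1.71 and -0.09. In all, 6 of these 11 genes were lower in ARP-1 and higher in MM.1S (37.5% of all tested genes). Of the receptors upstream, 3 of 17 were tested and 0 called: the insulin receptor INSR differed by 1.49 and -0.53, FGFR1 by -0.42 and 0.39, and IGF1R by -0.27 and -0.25.

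**Figure D3:**
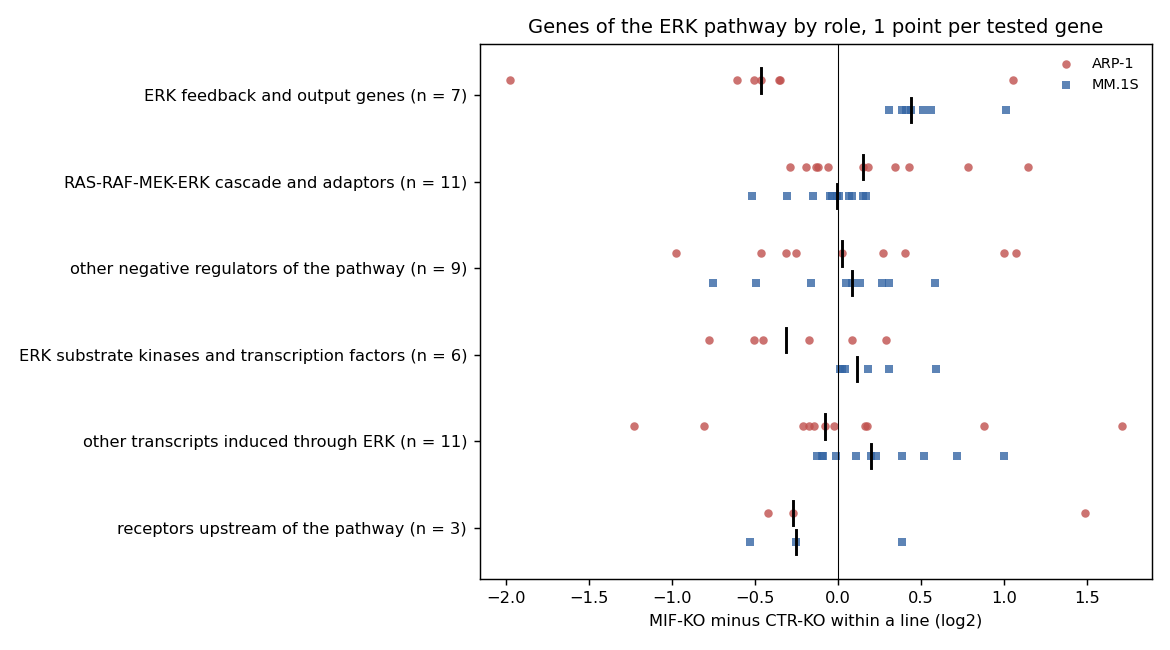
MIF-KO minus CTR-KO (log2, horizontal axis) for each tested gene of 6 lists of the ERK pathway, circles for ARP-1 and squares for MM.1S, with the median of each list and line as a black bar and 1 array per condition and line. The ERK feedback and output genes have the widest gap between the medians of the lines (-0.46 and 0.44); those of the cascade and adaptors are 0.15 and -0.01.

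The members' profiles were also compared with each other. Likeness was measured as the root mean square distance over the 4 arrays between log2 profiles centred on their means, where 0 is identity. DUSP4 and ETV4 were nearest (0.0746), then SPRY4 and ETV4 (0.105), DUSP4 and SPRY4 (0.138), and DUSP6 and SPRY4 (0.146), and these 4 genes lay within 0.277 of each other (DUSP4 and DUSP6). DUSP5 was little farther from DUSP6, at 0.326, but stood at 0.467 from SPRY4, 0.557 from ETV4 and 0.595 from DUSP4. The nearest member to DUSP2 was DUSP5 (0.545) and the nearest to ETV5 was DUSP4 (0.548). DUSP2 and ETV5 were farthest apart (1.26), since DUSP2 was highest and ETV5 lowest on CTR-KO ARP-1. Of the tested genes outside the list, the nearest to DUSP6 were MCCC2, a mitochondrial enzyme of leucine breakdown (0.0153), SRRD (0.0222) and the endolysosomal channel TPCN1 (0.0306). Nearest to DUSP2 were the apoptosis inducer BAK1 (0.0918), CCDC86 (0.121) and CTRL (0.122), and nearest to DUSP5 were ZNF106 (0.0737), RPUSD2 (0.134) and the ribosomal protein RPL32 (0.139). Nearest to ETV5 were the serine synthesis enzyme PSPH (0.0686), ARHGAP44 (0.0892) and utrophin, UTRN (0.0895). With 4 arrays and 7442 genes, close profiles are frequent, and the distances describe these arrays alone.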

How the data were processed

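The deposited table holds linear intensities per probe set (from 2.74 to 15935), normalized by the authors. The submitters' processing notes list RMA and limma without versions. No background step is stated there beyond the naming of RMA, nor which annotation and which genome build were used. Log2 was taken of the deposited intensities with no pseudocount, and differences are on that log2 scale. The platform annotation named 16098 probe sets with 1 gene symbol and 0 with several, leaving 37519 unnamed. All 16098 matched RefSeq by Entrez ID. The brightest probe set stood for each of 14884 genes, and the brighter ones (means from the median gene mean, log2 4.97, upward) were tested.

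Differences were fitted in limma 3.58.1 under R 4.3.3, with cell line and condition as terms, eBayes with a trend and Benjamini-Hochberg adjustment. It leaves 1 residual degree of freedom, to which the prior added 3.99. Cell line is the pairing, from the labels. Across probe sets, the 2 arrays of a line deviated from their condition means with r = -0.37. A line level shared by both conditions would give a positive r, so these values do not show one across probe sets. The cause was not tested. The script was tested on simulated data. Arrays give no read depth, so their number limits the precision.

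The members and lists were chosen with earlier results of these data known. Named genes are all members, MIF, up to 4 genes per list by size of difference, and the 3 nearest profiles for DUSP6 and for members ranging over at least 1 on the log2 scale. GRB2, ARAF, MAP2K1, MAPK3, SLAMF7 and IRF4 were named outside this rule after their values were seen. Alternatives covered the filter, scaling, pseudocount, probe set choice, trend, model terms, lines left out and the exchange of the ARP-1 arrays. Promoter windows came from RefSeq, and coordinates were used for those alone.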

Additional observations from a re-analysis of the deposited data

Results flagged for a closer look

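The differences within ARP-1 and MM.1S had opposite signs for 6 of the 7 tested genes, and for 67.6% of all tested genes. The gap between the lines (MM.1S minus ARP-1 in MIF-KO minus CTR-KO, log2) was 2.36 for DUSP2, 1.62 for DUSP5, 1.07 for DUSP6, 0.793 for SPRY4, 0.775 for ETV4 and 0.759 for DUSP4. Under the titles these gaps have no test of their own, since each line has 1 array per condition. The mean differences with the ARP-1 arrays exchanged are built from these same gaps. They are not a separate observation. The CTR-KO ARP-1 array, which stood furthest from the rest, enters all 6.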

How the results depend on the processing

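Within each line, 56 of 56 member differences kept their sign under 4 alternatives (arrays shifted to the same median, quantile normalization, a pseudocount of 16, the mean of a gene's probe sets). Most of these signs had little or no room to turn. A pseudocount cannot turn the sign of a difference, and averaging probe sets changes only DUSP5, the tested member with more than 1. The shift was small, as the median intensities of the arrays lay between 13.1 and 13.3. Limma called 0 members and 0 genes for condition without the replicate block (no cell line term), and likewise under the alternatives of filter, scaling, pseudocount, probe set and trend. With the ARP-1 arrays exchanged it called 401 genes and 1 member, and the mean turned to 1.18 for DUSP2, 0.39 for ETV4 and -0.27 for ETV5. With 1 line left out the mean difference is that of the other line: -1.97 to 0.39 for DUSP2, -0.35 to 0.41 for DUSP4, -0.61 to 1.01 for DUSP5, -0.51 to 0.56 for DUSP6, -0.35 to 0.44 for SPRY4, -0.46 to 0.31 for ETV4 and 0.52 to 1.06 for ETV5. Between lines, the sign turned without the CTR-KO arrays for DUSP2 (0.60), DUSP6 (0.27) and SPRY4 (0.39), without the MIF-KO arrays for DUSP4 (-0.11) and ETV4 (-0.22), and under quantile normalization for SPRY4 (0.0077). The cause was not tested.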

Other observations

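Some pathway genes outside the rule on named genes were picked here after their values were seen. MET, the receptor of hepatocyte growth factor, lay under the filter on its mean. Its intensity was 72.0 (control hairpin) and 15.97 (MIF hairpin) in ARP-1 and 16.8 and 23.6 in MM.1S, a profile with 1 high array, like that of DUSP2. The early response factor EGR1 read 1027, 1010, 700.02 and 1150.1 in the same order, so that it was level in ARP-1 (log2 -0.02) and higher with the MIF hairpin in MM.1S (0.72). GAB2, an adaptor under the filter, read 18.9, 31.8, 51.4 and 25.9, with differences of 0.75 and -0.99, opposite in sign to most of the ERK feedback genes in both lines. None of these genes has a replicate within a line. On all arrays but CTR-KO ARP-1, MET read between 15.97 and 23.6, and GAB2 read 18.9 on CTR-KO ARP-1. Such values are not far above the median of all probe sets (13.1 to 13.3 per array), and a level above background is not shown there.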
